A study of Homo sapiens with 6 samples.

Results

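The 10 genes described here encode subunits of the SWI/SNF chromatin remodelling complexes: ARID1A, ARID1B, ARID2, PBRM1, SMARCA4, SMARCA2, SMARCB1, SMARCC1, SMARCC2 and SMARCE1. Their transcript 3′ ends were read from a list of poly(A) 3′-seq peaks, and a peak belonged to a gene when its summit lay in the gene body or up to 4 kb past the gene's 3′ end. Of 200023 peaks in the list, 339 met this rule, all of them distinct, and 258 of these passed the study's cutoff of −log10 q of at least 5. Most of the 258 lay inside introns, at 175 peaks, while 46 lay at annotated transcript ends, 33 in other exonic sequence and 4 past the gene end. ARID1B alone held 65 of the intronic peaks, SMARCC1 held 31 and ARID2 held 23, whereas SMARCE1 held none.

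The cells were IMR-32, an established human neuroblastoma line, and the libraries were made with a kit whose reads begin where a transcript joins its poly(A) tail. There were 3 groups of 2 replicates each: the solvent DMSO, THZ531 at 400 nM for 2 h, and the same dose for 6 h. The compound binds covalently to CDK12 and CDK13, kinases that act on transcribing RNA polymerase, and inhibits them. The study merged the reads of all samples before peaks were called. Its methods do not list these samples, which were taken here to be the 6 libraries. The list thus holds 1 pooled set, without strand. Treated and untreated cells therefore cannot be compared, and no value carries a replicate error. A peak marks a candidate polyadenylated end from 1 or more of the libraries, which ones being unknown. The pooled list gives no depth per library either, and intervals given with shares are 95% Wilson intervals that cover counting error only.

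SWI/SNF complexes use the energy of ATP to slide or evict nucleosomes and so open chromatin at promoters and enhancers. SMARCA4 and SMARCA2 are their alternative ATPases, SMARCC1, SMARCC2, SMARCB1 and SMARCE1 are subunits of the shared core, ARID1A and ARID1B are alternative subunits of the BAF form, and ARID2 and PBRM1 belong to the PBAF form. Several are tumour suppressors, and the subunit composition changes as neural progenitors become neurons. The 3′ end of a messenger RNA forms when the nascent transcript is cut downstream of a polyadenylation hexamer, most often AATAAA, and a poly(A) tail is added. Cleavage at such a signal inside an intron gives a shortened transcript that lacks the exons downstream.

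The ends where each gene's tallest annotated-end peak stood are shown first. Several of them, as in SMARCA2, SMARCB1 and SMARCE1, are ends of other transcripts than the canonical. The ARID2 end shown lies in intron 20 of the canonical transcript, with its edge 14122 bp before the canonical end. It had 16 reads, as many as the peak at the canonical end of ARID2. The SMARCA2 summit lay in an exon of the canonical transcript between introns 27 and 29, before which 83.5% and 89.1% of the codons lie. In SMARCC2 the ATTAAA ran directly into a run of A that reached the edge. Each line gives the 30 bases that hold the hexamer nearest the top of the study's list of 12, or the bases up to the cleavage edge of the peak where the hexamer lies close to it, in GRCh38 and in the direction of the gene. Capitals mark any of the 12 hexamers.
ARID1A transcript end, chr1:26781094-26781123, plus strand: AATAAAaatggctttcccagtccttgcatc
ARID1B transcript end, chr6:157209234-157209263, plus strand: AATAAAtgtacATTAAAtcttgttaagcac
ARID2 transcript end, chr12:45893886-45893915, plus strand: gtcaaaAATAAATAGAagttaaaacaacca
PBRM1 transcript end, chr3:52545362-52545391, minus strand: AATAAATACAgagtttgcaaagtgatttgg
SMARCA4 transcript end, chr19:11062251-11062280, plus strand: AATAAATTAAAccaacaacaaaacgcacag
SMARCA2 transcript end, chr9:2161760-2161789, plus strand: gGATAAAgatcctgcaaaagaagatgtgga
SMARCB1 transcript end, chr22:23834482-23834511, plus strand: AATAAAaggcaacaggtcatgttcaatttc
SMARCC1 transcript end, chr3:47587594-47587623, minus strand: aaatttgtgaaaATTAAAcgagatgtggaa
SMARCC2 transcript end, chr12:56163329-56163358, minus strand: attttctatggATTAAAaaaaaaaaaaaaa
SMARCE1 transcript end, chr17:40628718-40628747, minus strand: AATGAAaaaatgttttttggttttaatggt

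The tallest intronic peaks of 5 of the 9 genes that had one are shown next, with the 100 bases before the 3′ edge of the peak and the 50 bases after it, because these windows differ in kind from gene to gene. Capitals mark hexamers in the first 100 bases. SMARCE1 had no intronic peak. None of these windows touched an annotated exon. The windows shown are not a balanced selection. The 4 tallest intronic peaks left out held 25 A in the richest 25 bases near the edge in SMARCA2, 24 in SMARCA4, 22 in SMARCC1 and 17 in SMARCB1, compared with 6 to 19 in the 5 shown.
ARID1A intron 1, chr1:26698165-26698314, plus strand: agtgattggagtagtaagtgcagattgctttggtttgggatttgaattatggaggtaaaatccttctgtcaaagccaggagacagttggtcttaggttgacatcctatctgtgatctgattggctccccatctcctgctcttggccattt
ARID1B intron 1, chr6:156783956-156784105, plus strand: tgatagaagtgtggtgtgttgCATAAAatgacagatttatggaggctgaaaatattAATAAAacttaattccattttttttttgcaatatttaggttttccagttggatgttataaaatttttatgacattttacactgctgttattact
ARID2 intron 3, chr12:45734472-45734621, plus strand: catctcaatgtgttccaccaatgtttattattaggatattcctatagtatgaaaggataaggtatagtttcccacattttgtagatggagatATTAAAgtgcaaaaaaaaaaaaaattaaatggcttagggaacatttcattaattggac
PBRM1 intron 11, chr3:52641437-52641586, minus strand: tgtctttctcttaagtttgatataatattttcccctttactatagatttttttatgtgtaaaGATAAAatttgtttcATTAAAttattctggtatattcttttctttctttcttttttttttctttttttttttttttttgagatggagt
SMARCC2 intron 11, chr12:56179973-56180122, minus strand: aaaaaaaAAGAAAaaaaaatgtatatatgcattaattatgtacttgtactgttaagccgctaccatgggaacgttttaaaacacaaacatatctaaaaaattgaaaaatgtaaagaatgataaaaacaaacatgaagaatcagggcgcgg

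The windows shown differed from each other. The ARID1B window held AATAAA 44 bases before the edge with a T run downstream of it, and the PBRM1 window held ATTAAA followed by a long T-rich tract. In ARID2 an ATTAAA 8 bases before the edge stood directly before a run of A. The ARID1A window held neither a hexamer nor an A run. A further window, in PBRM1 intron 18, is shown with 60 bases before the edge and 50 after it because an AATAAA stands shortly before the edge.
PBRM1 intron 18, chr3:52606504-52606613, minus strand: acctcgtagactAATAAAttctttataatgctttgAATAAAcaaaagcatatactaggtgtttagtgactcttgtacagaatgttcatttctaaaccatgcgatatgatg

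The height of a peak is given here as reads at the summit, the number of extended reads over the highest point, recovered from the deposited fold and −log10 p. It counts mainly distinct read starts under the peak caller's default handling of duplicates, so it ranks peaks within the list and is no measure of transcript abundance. The 258 peaks had 7 to 66 reads with a median of 14. Just inside the cutoff the −log10 q was 5.02 and just outside it was 4.99. The 81 peaks below the cutoff had a median of 7 reads, and 63 of them were intronic. Another annotated gene lay at the summit of 35 of the 258 peaks, in 23 cases a gene on the opposite strand, and for these the gene of origin cannot be told apart.

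**Figure D1:**
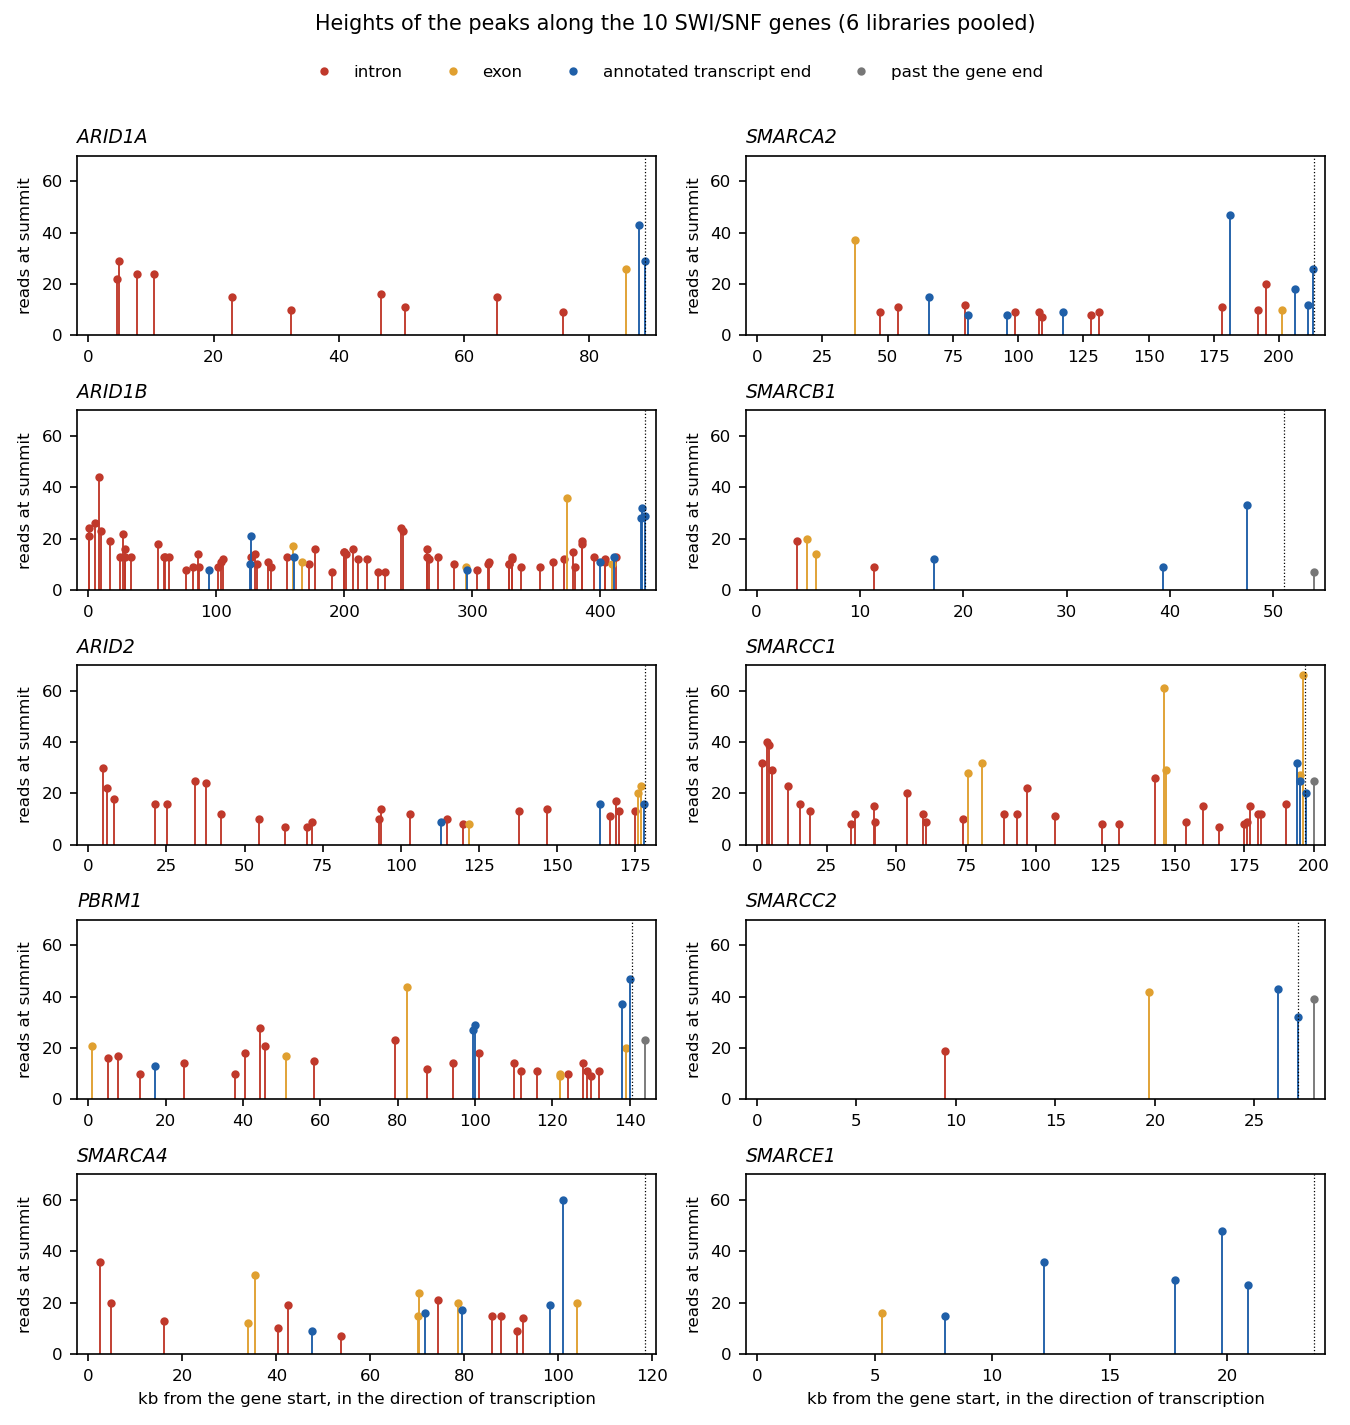
Each panel plots the peaks past the cutoff along 1 gene, with kb from the gene start on the horizontal axis and reads at the summit on the vertical axis. Colours give the position class and the dotted line marks the gene end. Intronic peaks within 10 kb of the start had 16 to 44 reads, and the tallest peak of the 10 genes, 66 reads, was exonic and lay at the far end of SMARCC1.

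All 10 genes had at least 1 peak at an annotated transcript end, as did 64.0% of the 20028 protein-coding genes. A transcript end was counted when the summit lay from 200 bp before to 600 bp after the end of any annotated transcript. A peak at the end of the canonical transcript itself was present in 7 of the 10, compared with 83.3% of detected genes with introns. The 3 without one were SMARCA4, SMARCB1 and SMARCE1. In SMARCA4 this rests on the class window, because the peak of 60 reads had its 3′ edge 8 bp past the canonical end while its summit lay further upstream. In SMARCB1 the tallest peak, of 33 reads, had its edge 3487 bp before the canonical end, and in SMARCE1 the tallest, of 48 reads, had it 3754 bp before. Both of these were ends of other annotated transcripts.

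The share of peaks in introns was 67.8% (175 of 258, interval 61.9 to 73.2%), beside 64.0% of the peaks of all other protein-coding genes. Transcript ends made up 17.8% (interval 13.6 to 22.96%), beside 20.2% elsewhere. Exonic peaks made up 12.8% (9.26 to 17.4%) beside 10.3%, and peaks past the gene end 1.55% (0.605 to 3.92%) beside 5.52%. The shares of the other genes in the first 3 classes fell inside the intervals of the 10 genes, and the share past the gene end lay above its interval. Only 7 of the 46 transcript-end peaks were at the canonical end and 39 were at ends of other annotated transcripts.

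**Figure D2:**
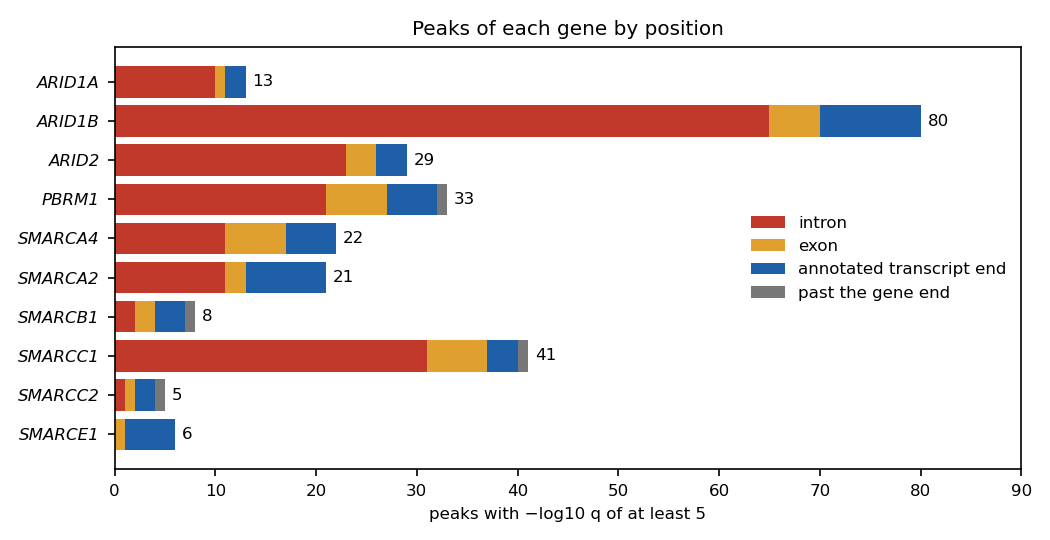
Bars give the number of peaks past the cutoff of each gene on the horizontal axis, split by position class, with the total at the end of each bar. ARID1B had 80 peaks and SMARCC2 had 5, and intronic peaks were the largest class in ARID1A, ARID1B, ARID2, PBRM1, SMARCA4, SMARCA2 and SMARCC1.

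Of the 10 genes, 9 had an intronic peak, as did 80.1% of detected protein-coding genes with introns. The 10 genes together had 0.139 intronic peaks per kb of intron (175 peaks over 1258 kb, exact 95% Poisson interval 0.119 to 0.161), beside 0.0882 in the other 12438 detected genes and 0.0967 in the 7569 of these whose length lay within the range of the 10. With −log10 q of at least 20, only 4 intronic peaks were left in the 10 genes, too few to give a direction. Their rate was 0.00318 per kb, beside 0.00377 in the other genes. The median number of intronic peaks per gene was 11 in the 10 genes, 3 in the other detected genes and 6 in those within the range of length. Median rates per gene were 0.127, 0.101 and 0.107 per kb in the same order. ARID1B held 65 of the 175 peaks, and the Poisson interval treats peaks as independent counts. By rate, SMARCA2, SMARCB1, SMARCC2 and SMARCE1 stood at or below the 35.9 percentile of detected genes, and the other members at the 55.7 to 76.3 percentiles. Gene length differed between the sets too, with medians of 129.5 kb, 36.7 kb and 64.3 kb, and expression could not be set equal because the list holds no measure of it. Across the 10 genes, length and the number of intronic peaks had a Spearman rho of 0.91 (n = 10 genes that share the same pooled libraries), given as a description.

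**Figure D3:**
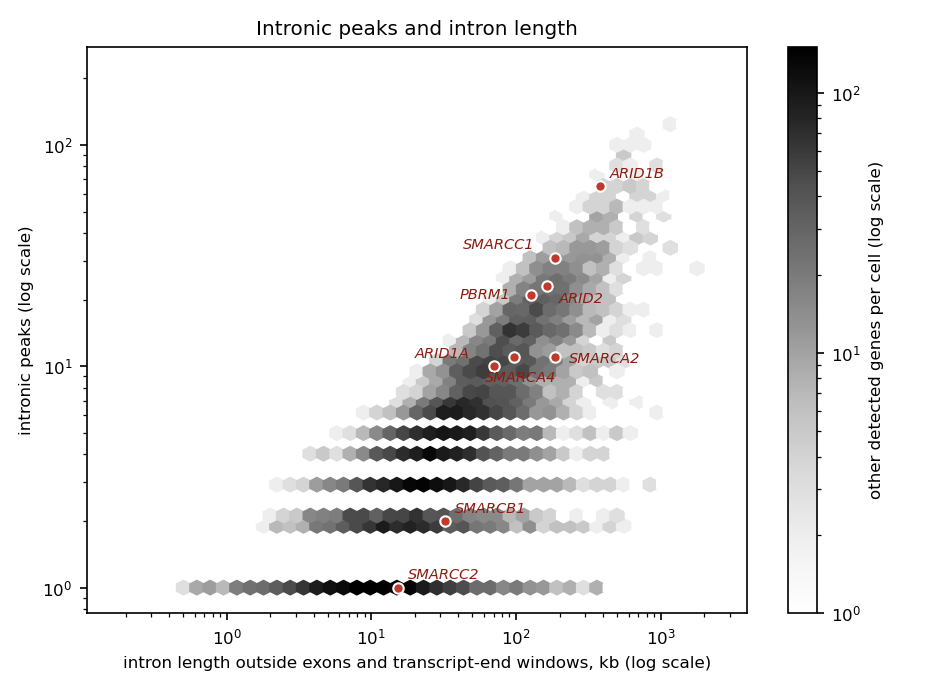
Each red point is 1 of the 9 SWI/SNF genes with an intronic peak, placed by intron length in kb and number of intronic peaks, both on log scales. Grey cells count the other detected genes with at least 1 intronic peak, darker for more genes. ARID1B and SMARCC1 lie toward the upper edge of the grey cloud for their intron length and SMARCA2, SMARCB1 and SMARCC2 lie in its middle or lower part.

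ARID1A and ARID1B, the alternative ARID subunits of BAF, have canonical coding sequences of 2285 and 2372 codons and differed widely in the number of intronic peaks. ARID1A (ENSG00000117713.21, chr1:26693236-26782104, plus strand) had 10 intronic peaks in 70.9 kb of intron, or 0.141 per kb. ARID1B (ENSG00000049618.25, chr6:156776020-157210779, plus strand) had 65 in 378.7 kb, or 0.172 per kb. Per kb of intron the genes were thus close, at the 66.0 and 76.3 percentiles of detected genes. Set against the 491 detected genes within 1.5-fold of its length, where the median was 23 intronic peaks, ARID1B had more than 95.3% of them. ARID1A had more than 63.0% of the 2440 genes near its own length.

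The intronic peaks of ARID1A were gathered in its first intron, which held 6 of the 10 and took 45.5% of its intronic bases. The 4 nearest the start had 22, 29, 24 and 24 reads, over a local background of 4.39 to 5.36 reads, and none of them had a hexamer in the 100 bases before the edge. Only 2 of the 10 intronic peaks of ARID1A had a hexamer. The tallest ARID1A peak, with 43 reads and −log10 q of 38.1, was at an annotated end whose edge lay 922 bp before the canonical end, and the canonical end itself had 29 reads. All 10 intronic peaks lay before the middle of the coding sequence, with 16.6 to 46.7% of the codons upstream of them.

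In ARID1B the fourth intron, the longest at 149.1 kb, held 19 intronic peaks of 7 to 24 reads, the second held 11 of 8 to 18 reads and the first held 9 of 13 to 44 reads. A hexamer stood before 36 of the 65 intronic peaks. The tallest intronic peak of all 10 genes was the one shown above in ARID1B intron 1, at chr6:156783904-156784055, with 44 reads, a background of 4.89 and −log10 q of 23.4, and it exceeded the tallest transcript-end peak of ARID1B, at 32 reads. A peak of 36 reads at chr6:157149843-157149971 lay in the eighth intron of the canonical transcript and in an exon of another ARID1B transcript, with AATAAA starting 23 bases before its edge. The last part of the gene had 3 transcript-end peaks of 28, 32 and 29 reads, and the edge of the last lay 4 bp before the canonical end. Of the 63 intronic peaks in numbered introns of ARID1B, 62 had under 50% of the codons before them.

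ARID2, the ARID subunit of PBAF, and PBRM1, its bromodomain subunit, both had many intronic peaks of modest height. ARID2 (ENSG00000189079.18, chr12:45729706-45908040, plus strand) had 23 in 162.8 kb, or 0.141 per kb, and 12 of them lay in intron 3, 80.1 kb long. Those 12 had 7 to 30 reads, and only 5.12% of the codons lie before that intron. The tallest, 30 reads at chr12:45734276-45734571, exceeded every transcript-end peak of ARID2, which had 9, 16 and 16 reads. A taller exonic peak of 23 reads stood 1491 bp before the canonical end, past the last codon. A hexamer stood before 13 of the 23 intronic peaks.

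PBRM1 (ENSG00000163939.19, chr3:52545352-52685917, minus strand) had 21 intronic peaks in 126.2 kb, or 0.166 per kb, spread over 13 introns with at most 3 in any of them. The tallest intronic peak, 28 reads, and its neighbour of 21 reads both lay in intron 11, and both had a hexamer 12 to 23 bases before the edge. The canonical end had 47 reads and another annotated end 2461 bp upstream had 37. A peak of 44 reads at chr3:52603535-52603756 lay in a coding exon with 53.3% of the codons before it. On the distal side, 23 reads at chr3:52541792-52542164 lay 3327 bp past the gene end. UQCC5 on the opposite strand covered this peak, the canonical end and the other PBRM1 peaks of that region, 14 in all, so that without strand they cannot be assigned to 1 of the genes. With peaks at another annotated gene left out, PBRM1 had 13 intronic peaks instead of 21.

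The alternative ATPases had the same number of intronic peaks over introns of unequal length. SMARCA4 (ENSG00000127616.22, chr19:10960932-11079426, plus strand) had 11 in 96.8 kb, or 0.114 per kb, and SMARCA2 (ENSG00000080503.25, chr9:1980290-2193624, plus strand) had 11 in 184.9 kb, or 0.0595 per kb. Among detected genes within 1.5-fold of its length, 41.2% had more intronic peaks than SMARCA4 and 65.2% had more than SMARCA2. The tallest SMARCA4 peak, with 60 reads and −log10 q of 56.7, had its edge just past the canonical end but its summit outside that window. The tallest intronic peak of SMARCA4, with 36 reads, lay in intron 1, 2.38 kb from the start and upstream of all of its codons.

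SMARCA2 had no intronic peak within 10 kb of its start, and its 11 intronic peaks had 7 to 20 reads with a median of 9. Its tallest peak, 47 reads at chr9:2161600-2161789, stood at an annotated end of other SMARCA2 transcripts, 31831 bp before the canonical end, which itself had 26 reads. Toward the start, an exonic peak of 37 reads lay 37.3 kb into the gene and within the first intron of the canonical transcript. In all, 8 SMARCA2 peaks stood at annotated ends, and 7 of them were ends of other transcripts than the canonical.

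SMARCC1 and SMARCC2 encode paralogous scaffold subunits of the core and stood far apart in number. SMARCC1 (ENSG00000173473.11, chr3:47585269-47782106, minus strand) had 31 intronic peaks in 186.0 kb, or 0.167 per kb, more than 94.7% of the detected genes near its length. SMARCC2 (ENSG00000139613.12, chr12:56162359-56189567, minus strand) had 1 in 15.2 kb, or 0.0658 per kb, and 71.6% of the genes near its length had more. The first intron of SMARCC1, 8.67 kb long, held 4 peaks of 32, 40, 39 and 29 reads, and these were its 4 tallest intronic peaks. Their background of 6.17 to 7.57 reads was also the highest among the intronic peaks of the 10 genes.

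The tallest SMARCC1 peaks were exonic. One of 66 reads, at chr3:47585881-47586131, lay 612 bp before the canonical end and past the last codon with AATAAA starting 36 bases before the edge, and the canonical end had 20 reads. The other, of 61 reads at chr3:47636031-47636229, lay in a coding exon with 71.9% of the codons before it, and its AATAAA started 100 bases before the edge. A further 25 reads stood 3076 bp past the gene end with AATAAA starting 29 bases before the edge. In SMARCC2 the 2 transcript-end peaks had 43 and 32 reads, an exonic peak had 42 and a peak 818 bp past the gene end had 39. The ends and the distal peak of SMARCC2 overlap MYL6 on the opposite strand, and cannot be assigned to 1 of the genes. The intronic and the exonic peak of SMARCC2 lay at another annotated gene too. With peaks at another gene left out, SMARCC2 had 0 intronic peaks.

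SMARCB1 and SMARCE1, further subunits of the core, had few intronic peaks. SMARCB1 (ENSG00000099956.20, chr22:23786931-23838009, plus strand) had 2, of 19 and 9 reads, in 32.1 kb, and 78.1% of the genes near its length had more. A weak peak of 7 reads lay 2897 bp past its end. SMARCE1 (ENSG00000073584.20, chr17:40624962-40648654, minus strand) had no intronic peak, but its annotated transcripts, 51 in number, leave only 4.05 kb of sequence that is intronic in all of them. It had 5 transcript-end peaks of 15, 36, 29, 48 and 27 reads, and its 1 exonic peak had 16. An unnamed gene on the same strand covers SMARCE1, and its transcripts were not separated from those of SMARCE1.

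A peak 600 to 4000 bp past the gene end was present in 4 of the 10 genes (PBRM1, SMARCB1, SMARCC1 and SMARCC2), beside 31.0% of detected genes with introns. These 4 peaks had 7 to 39 reads. All 4 had one of the 12 hexamers in the 100 bases before the edge, and 1 of them had AATAAA. Of such peaks in the other genes, 52.9% had a hexamer and 21.5% AATAAA, and the interval for 4 of 4 (51.0 to 100%) includes the former share.

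Intronic peaks were taller near the gene start. Within 10 kb of the start, 21 intronic peaks had a median of 24 reads (16 to 44), and the other 154 had a median of 12 (7 to 28). The near median was above the far median in each of the 7 genes that had peaks in both zones. Few peaks stood behind some of these, with 1 in each zone in SMARCB1 and 2 near peaks each in PBRM1 and SMARCA4. The same count was not made in other genes. In SMARCC1, for example, the 4 near peaks had 29 to 40 reads and the 27 far ones 7 to 26, so that the zones did not overlap. In PBRM1 they overlapped, with 16 and 17 reads near the start and 9 to 28 farther away. The local background moved with height, at a median of 4.39 reads near the start and 0.87 farther away, and a peak on a higher background needs more reads to pass the cutoff. Other protein-coding genes had medians of 17 reads near and 11 far, over backgrounds of 1.92 and 0.68. The part of the background in the difference of heights was not tested.

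**Figure D4:**
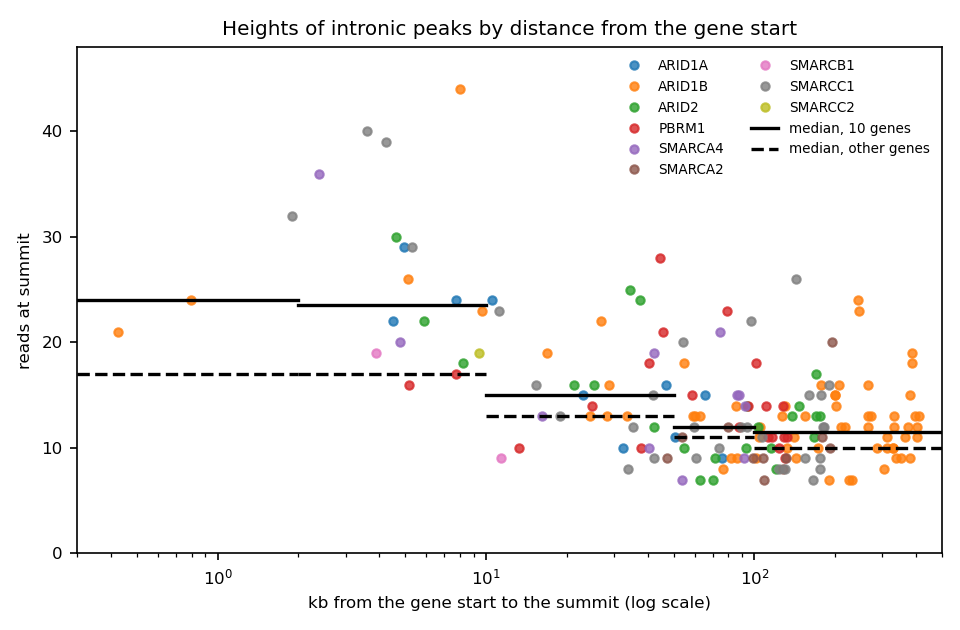
Points are the 175 intronic peaks, coloured by gene, with kb from the gene start to the summit on a log axis and reads at the summit on the vertical axis. Solid lines give medians of the 10 genes and dashed lines medians of other protein-coding genes in 5 bins of distance. The solid line falls from 24 reads within 2 kb to 11.5 beyond 100 kb, and the dashed line from 17 to 10. Within 2 kb the solid line rests on only 3 peaks and the dashed line on 3393.

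First introns held 25 of the 173 intronic peaks in numbered introns, or 14.5% (interval 9.98 to 20.5%). They took 11.3% of the intronic bases of the canonical transcripts, as a mean over genes weighted by their number of such peaks. In the other protein-coding genes first introns held 31.6% of the peaks. The base share weighted in the same way was 27.1% in the other detected genes. The peaks of the 10 genes were spread over 65 of 229 introns, and the 9 introns with at least 5 peaks held 80 of them. Measured on the coding sequence, the peaks in numbered introns had a median of 31.6% of the codons before them, and 129 of the 173 had under 50%. ARID1B gave 62 of these 129. The share of intronic bases before the middle of the coding sequence was not computed, and neither was the same count in other genes. The part of gene structure in these values was therefore not tested.

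The tallest transcript-end peak exceeded the tallest intronic peak in 6 of the 9 genes with an intronic peak, as it did in 61.7% of detected genes with one. Reads at the tallest end and the tallest intronic peak were 43 and 29 in ARID1A, 47 and 28 in PBRM1, 60 and 36 in SMARCA4 and 47 and 20 in SMARCA2. They were 33 and 19 in SMARCB1 and 43 and 19 in SMARCC2. The order was turned in ARID1B, with 32 and 44, in ARID2, with 16 and 30, and in SMARCC1, with 32 and 40. In SMARCC1 this rests on the class window. Its peak of 66 reads past the last codon was classed as exonic, is not counted here and exceeded its tallest intronic peak.

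Polyadenylation hexamers were found more often before transcript-end peaks than before intronic peaks. One of the 12 hexamers stood in the 100 bases before the edge of 34 of 46 transcript-end peaks, or 73.9% (interval 59.7 to 84.4%), and of 90 of 175 intronic peaks, or 51.4% (44.1 to 58.7%), and these intervals did not overlap. They did overlap for AATAAA alone (30.2 to 57.8% at transcript ends, 19.3 to 32.1% in introns), in a window ending at the summit (32.2 to 59.8% and 25.01 to 38.6%), without peaks at another annotated gene (53.1 to 82.0% and 44.2 to 59.6%) and with −log10 q of at least 20 (77.2 to 100% and 30.1 to 95.4%). The transcript-end share was the higher in each of these. In the other protein-coding genes the shares were 79.2% and 57.1%. The same search on the opposite strand of the intronic peaks found a hexamer at 39.4% (32.5 to 46.8%). AATAAA alone stood before 44 intronic peaks, or 25.1% (19.3 to 32.1%), against 12% (7.98 to 17.7%) on the opposite strand. In 30 of these 44 it started 10 to 40 bases before the edge, as in 16 of the 20 transcript-end peaks that had it.

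A runs were common at the intronic edges. A run of at least 18 A in 25 bases, searched from 25 bp before the edge to 50 bp after it, was present at 88 of 175 intronic peaks (50.3%, interval 43.0 to 57.6%), beside 42.2% in the other genes. At transcript ends it was present at 11 of 46 (23.9%, 13.9 to 37.9%), beside 11.5%. This wider search was chosen after the data were seen. SMARCA2 had such a run at 9 of its 11 intronic peaks and PBRM1 at 14 of 21, whereas ARID1B had it at 28 of 65. An oligo(dT) primer can anneal to A-rich sequence inside a transcript as well as to a poly(A) tail, and which of these gave a peak was not tested. With the stricter search of at least 22 A downstream of the edge only, 13 intronic peaks had a run (7.43%, 4.39 to 12.3%), beside 5.51% in the other genes. Of the 175, 9 had this stricter run and no hexamer (5.14%, 2.73 to 9.48%), beside 4.51% in the other genes. The study's methods remove such peaks, but they are counted in this report.

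The 87 intronic peaks without such an A run had a hexamer in 62 cases (71.3%, interval 61.0 to 79.7%), beside 68.0% in the other genes. Transcript-end peaks without an A run had one in 31 of 35 cases (88.6%, interval 74.1 to 95.5%), beside 83.2% in the other genes, and the intervals of the 10 genes for introns and transcript ends overlapped. The remaining 25 had neither, the peaks near the start of ARID1A among them. Counting only these 87, the 10 genes had 0.0692 intronic peaks per kb, beside 0.0502 in the other detected genes. A narrower group, with AATAAA or ATTAAA starting 10 to 40 bases before the edge and under 18 A downstream, held 38 intronic peaks (21.7%, interval 16.3 to 28.4%), beside 20.6% in the other genes, a share inside that interval. It comprised 19 in ARID1B, 6 in PBRM1, 6 in SMARCC1, 3 in ARID2 and 1 each in ARID1A, SMARCA2, SMARCA4 and SMARCB1. Its definition was also chosen after the data were seen.

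**Figure D5:**
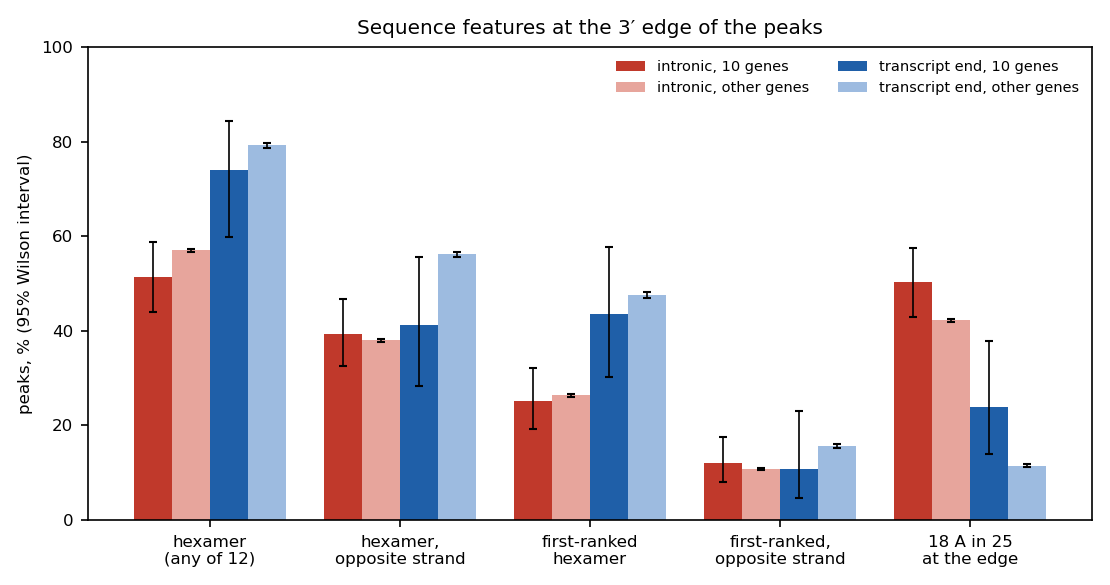
Bars give the percent of peaks with each sequence feature at the 3′ edge, with 95% Wilson intervals, for intronic and transcript-end peaks of the 10 genes and of the other protein-coding genes. The first-ranked hexamer is the most common signal, at 25.1% of intronic and 43.5% of transcript-end peaks of the 10 genes, and it was rarer on the opposite strand in all 4 groups.

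The 19 other genes of SWI/SNF subunits were all detected and all had an intronic peak, with a median of 5 (1 to 15) and 0.120 per kb together. Among the subunits known from neural progenitors, ACTL6A had 4 intronic peaks, PHF10 4 and SS18 6, and their tallest transcript-end peaks had 47, 56 and 26 reads. Among those known from neurons, ACTL6B had 1, DPF1 5, DPF3 15 and SS18L1 6, with tallest transcript ends of 15, 36, 23 and 35 reads. Both kinds of subunit thus had transcript ends in the list. DPF3, the longest of the 19 at 285.1 kb, had the most intronic peaks, and ACTL6B, BCL7B and DPF2 had the fewest, 1 each. MYCN and HAND2, which mark neuroblastoma and sympathetic neuroblasts, were both detected, and of 4 markers of other cell types EPCAM had a transcript-end peak of 7 reads and 2 intronic peaks, the taller of 25 reads, while ALB, PTPRC and KRT5 had no transcript-end peak.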

How the data were processed

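Poly(A) 3′-seq libraries of IMR-32 cells were grouped from their labels as DMSO, THZ531 2 h and THZ531 6 h, with 2 replicates each. As the methods of the study describe, the authors trimmed reads, mapped them with STAR 2.5.1b to GRCh38, keeping reads with up to 20 placements, merged all samples and called peaks with MACS2 2.1.1, without a control and with reads extended to 100 bp. These versions also stand in the submitters' processing notes. Each deposited peak has a fold enrichment, the ratio of pileup plus 1 to background plus 1. The deposited −log10 p-value and −log10 q-value belong to the summit. The deposited score and the authors' summit offset complete the list, and the score was not used.

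Reads at the summit and background were solved here from fold and −log10 p (largest misfit 0.000172), and the solution and the motif search were tested on simulated data. The lowest background was 0.337 reads. Annotation was Gencode release 44 (GRCh38), and all coordinates are 1-based. The study used an older release. Classes were assigned in the order transcript end, exon, intron and past the end, from all transcripts of the gene. Intronic sequence excludes exons and transcript-end windows of every transcript, and intron numbers are those of the canonical transcript. Genes with at least 1 transcript-end peak past the cutoff were called detected. The 3′ edge is the right edge of a peak for plus-strand genes and the left edge for minus-strand genes. The 12 hexamers, in the order in which a peak was given its hexamer, were AATAAA, then ATTAAA, then AGTAAA, then TATAAA, then AATATA, then AATACA, then CATAAA, then GATAAA, then AATGAA, then ACTAAA, then AAGAAA, then AATAGA. Work was done in python 3.11.15 with pysam 0.24.0, pandas 2.3.3 and scipy 1.17.1.

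The named genes were the 10 genes, with the tallest transcript-end and intronic peak and the most distal peak past the end of each, and of the other subunits those of neural progenitors and neurons and those with the most and fewest intronic peaks. Other peaks named in the text were chosen after their values were seen. The members and lists were chosen with earlier results of these data known. Alternatives covered the cutoff, the gene range, overlapping genes, merging of close peaks, the classes, the hexamer window and the A runs. No test was run, since the list has no replicates. Depth per library is unknown. Some sequences and a marker gene are not reported here.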

Additional observations from a re-analysis of the deposited data

How the results depend on the processing

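No paired analysis was possible because peaks were called on pooled reads only, and no replicate could be left out for this reason. Of 50 values under alternatives, 27 stayed within the interval or within 1.5 times of the reported one and 23 moved. Among the same comparisons made for single genes, 23 of 40 stayed and 17 moved, mostly at the stricter cutoff.

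With −log10 q of at least 20, 28 peaks were left, of which 14.3% were intronic and 46.4% at transcript ends (28.1% and 50.2% in the other genes). The 4 intronic ones gave 0.00318 per kb, beside 0.00377 in the other genes, and a median of 0 per gene. Of these 4, 75% had a hexamer, 0.0% an A run downstream and 50% lay in first introns. All 13 transcript-end peaks (100%) had a hexamer. Without a cutoff there were 0.189 intronic peaks per kb. With the canonical transcript only, introns held 79.8% and transcript ends 2.71% of the peaks.

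The hexamer share of intronic peaks was 25.1% for AATAAA alone, 31.4% in a window ending at the summit, 41.7% in 40 bp and 71.3% without peaks with A runs, and that of transcript ends was 43.5% for AATAAA alone and 45.7% up to the summit. The A-run share of intronic peaks was 32.0% for 18 A downstream, and from 25 bp before the edge it was 22.9% for 22 A and 50.3% for 18 A. Leaving out peaks with 18 A downstream gave 0.0946 per kb, and 0.0692 from 25 bp before the edge. The searches from 25 bp before the edge were added after seeing the data.

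Peak calls rest on pooled reads without strand, and the authors' list holds no level of expression. An intronic peak can be an end of the SWI/SNF transcript, of a transcript on the opposite strand, or a product of priming inside a transcript, and these were not separated.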
